A study of Mus musculus with 4 samples.

Results

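The genes described here are 48 of the 20674 genes listed over the deposited tables of mouse fetal lung cells: 19 that act in S phase, when a cell copies its DNA, and 29 that act from late S phase through mitosis, when it divides. They were taken as a named list and not by their values, and all 48 are listed in each of the 4 tables. The E17.5 samples were live cells from 3 wild-type lungs, called lungs 1, 2 and 3 below. The E16.5 sample was sorted from 1 lung that carried αSMA-GFP, Tbx4-Cre and Rosa26-tdTomato, and held cells that were both Tbx4-lineage positive (Cre driven from Tbx4 marks lung mesenchyme and its descendants) and αSMA positive (a reporter for Acta2, the actin of smooth muscle and myofibroblasts). All samples were C57BL/6. The sort is therefore a selected part of the mesenchyme from a single animal, and stage, gate, reporter alleles and library change together between it and the lungs.

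The cycle is a relay of transcription and destruction. The Mcm2 to Mcm7 proteins form the ring helicase that is loaded on DNA before S phase by Cdc6 and Cdt1. Pcna then clamps the polymerases to the template, and ribonucleotide reductase (Rrm1, Rrm2) and thymidylate synthase (Tyms) supply the building blocks. E2F factors drive most of these genes from the end of G1. The mitosis genes peak later, when the MuvB complex acts with B-Myb and Foxm1. Their promoters often hold a cell cycle homology region (CHR) and CCAAT boxes. Cdk1 with its cyclins Ccnb1 and Ccnb2 starts mitosis, and Aurka, Aurkb and Plk1 are further kinases of mitosis. Cenpa, Cenpe, Cenpf, Nuf2 and Spc25 build the centromere and kinetochore, and Cdc20 and Ube2c direct the destruction of the cyclins at the end of mitosis. In the fetal lung, division of endothelium, mesenchyme and epithelium accompanies the thinning of the future air spaces.

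The 2 sets of genes differ in the letters near their starts, and stretches of a few promoters are shown for that reason. RefSeq promoters of build GRCm38.p6, 300 bases each, were matched to 42 of the 48 symbols. The motif letters searched on both strands were TTTGAA and TTTAAA (CHR; TTTAAA reads the same on both strands), CCAAT, and TTTCCCGC, TTTGGCGC and TTTCCCGG (E2F). TTTGAA was in 20 of 26 mitosis promoters (76.9%) and in 1 of 18 promoters of 16 S phase genes (5.56%), beside 17.9% of all 32851 promoters. TTTGAA or TTTAAA was in 88.5%, 22.2% and 27.6% of the same 3 sets, and together with CCAAT in 76.9%, 22.2% and 10.7%. One of the 3 E2F strings was in 6 of 18 S phase promoters (33.3%), in 1 of 26 mitosis promoters (3.85%) and in 2.80% of all. CCAAT alone was in 66.7% of S phase, 80.8% of mitosis and 37.4% of all promoters. A match is a description of letters and does not show binding. The stretches run 5′ to 3′ along the gene's strand, from 120 bases before the start to 30 after it, with motif letters in capitals (read on the other strand, ATTGG is the CCAAT string, the last capitals of the Ube2c stretch are a TTTGAA string, and GCGGGAAA is the TTTCCCGC string).
Mcm3, a helicase subunit, chr1:20820283-20820432, minus strand: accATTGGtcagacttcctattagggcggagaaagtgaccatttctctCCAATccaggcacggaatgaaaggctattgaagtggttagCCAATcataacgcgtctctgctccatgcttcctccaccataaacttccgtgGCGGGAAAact
Mcm6, a helicase subunit, chr1:128359676-128359825, minus strand: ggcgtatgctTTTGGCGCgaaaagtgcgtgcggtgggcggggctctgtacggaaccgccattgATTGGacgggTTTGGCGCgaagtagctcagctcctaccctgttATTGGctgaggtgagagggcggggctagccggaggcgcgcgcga
Pcna, the polymerase clamp, chr2:132253151-132253300, minus strand: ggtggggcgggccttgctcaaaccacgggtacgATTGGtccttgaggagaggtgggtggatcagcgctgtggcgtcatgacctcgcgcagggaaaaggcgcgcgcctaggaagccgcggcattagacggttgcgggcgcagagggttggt
Cdk1, the mitotic kinase, chr10:69352883-69353032, minus strand: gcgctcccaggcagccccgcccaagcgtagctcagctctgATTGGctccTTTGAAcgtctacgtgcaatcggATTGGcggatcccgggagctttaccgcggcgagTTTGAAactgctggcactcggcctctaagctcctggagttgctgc
Ube2c, the ubiquitin-conjugating enzyme of mitotic exit, chr2:164769809-164769958, plus strand: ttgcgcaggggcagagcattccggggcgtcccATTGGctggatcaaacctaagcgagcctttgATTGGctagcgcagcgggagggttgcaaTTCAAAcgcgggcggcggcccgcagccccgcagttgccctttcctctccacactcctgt
Cenpa, the centromeric histone, chr5:30666766-30666915, plus strand: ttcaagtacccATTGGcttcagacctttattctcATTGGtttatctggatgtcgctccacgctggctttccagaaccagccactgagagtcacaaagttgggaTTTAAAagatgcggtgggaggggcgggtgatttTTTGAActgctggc
Cdc20, the activator of the anaphase-promoting complex, chr4:118437314-118437463, minus strand: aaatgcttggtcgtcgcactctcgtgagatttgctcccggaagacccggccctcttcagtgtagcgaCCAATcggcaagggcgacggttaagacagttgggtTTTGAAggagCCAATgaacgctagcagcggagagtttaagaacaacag
The Cdk1, Cenpa and Cdc20 stretches each hold TTTGAA within 150 bases, Ube2c holds it on the other strand, and Mcm6 holds TTTGGCGC at more than 1 place, whereas the Pcna stretch holds CCAAT alone of the motifs searched.

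Values below are UMI counts (molecules of RNA tagged once each) recovered from the deposited signal and given as CPM (counts scaled to 1000000 UMIs per cell), averaged over the cells of a class in a sample. The sort's library held 3085 cells and those of lungs 1 to 3 held 2682, 2140 and 2657, with medians of 12007 UMIs and 7979, 8493.5 and 7201 UMIs, and 7 to 13 cell barcodes were shared by each pair of libraries. After 31, 36, 34 and 30 called doublets were left out, clusters were formed without 262 cell cycle genes, so that the members had no direct part in the classes. The sort's label held for its defining markers: Acta2 was detected in 98.3% of its cells beside 36.7%, 40.0% and 31.0% in the lungs, and Tbx4 in 38.2% beside 7.63%, 9.73% and 6.62%. Epcam of epithelium was detected in 2.98% of sorted cells, Cdh5 of endothelium in 1.18% and Ptprc of immune cells in 0.197%. Acta2 was also detected in 17.49%, 22.2% and 14.5% of immune cells of the lungs (medians of 7754, 7868 and 6764 UMIs), a class that should lack it. Litters are not named for the 3 lungs, so p-values cover the spread between these lungs only, and a mean over a class cannot tell fewer cycling cells from less RNA in each.

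Endothelium held the highest levels of the replication and mitosis genes at E17.5, and epithelium the lowest of most. The mean over the 3 lungs was highest in endothelium for 18 of 19 S phase and 25 of 29 mitosis members, and in immune cells for the others. In the fit, 45 members passed the filter of a mean of 10 CPM; Cdc6, Bub1 and Kif20b did not. Each compartment was set against the average of the log2 levels of the other three, so a difference need not equal the ratio of the 2 mean levels printed.

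Of the 45, 44 were higher in endothelium and 0 lower, where 51.6% and 27.6% of all 8359 genes tested were called higher and lower (limma, adjusted p under 0.05). The median difference was 0.99 over the S phase and 0.90 over the mitosis members, on the log2(CPM + 10) scale, and 0.16 over all genes. Among the S phase genes the helicase subunit Mcm5 stood at 88.5, 76.4 and 85.3 CPM in the endothelium of lungs 1 to 3 and at 27.4, 23.2 and 25.7 in the rest. Every endothelial value lay above every other, a log2 difference of 1.56 ± 0.06 (SE; limma, adjusted p = 1.03e-16). Rrm2, the regulated subunit of ribonucleotide reductase, was at 134, 93.1 and 110.1 CPM against 33.6, 31.8 and 35.8 (1.51 ± 0.08; adjusted p = 1.66e-14 by limma). Mcm2, another helicase subunit, differed by 1.5 ± 0.07 and Tyms by 1.40 ± 0.07. Among the mitosis genes Cdk1 led, at 149, 120.3 and 133 CPM against 44.6, 40.0 and 46.9, with no overlap between the groups (1.43 ± 0.09; limma, adjusted p = 5.37e-13). Cdca3, which takes part in the destruction of Wee1 at mitotic entry, was the 1 tested member not called: its 61.7, 57.5 and 56.4 CPM lay within the 56.3 to 62.4 of the rest (0.09 ± 0.08, adjusted p = 0.281 by limma). With median-of-ratios scaling 43 of the members tested were called higher; under it the all-gene median difference was -0.05 in place of 0.16, and 2735 genes were higher and 3540 lower in place of 4316 and 2309.

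**Figure D1:**
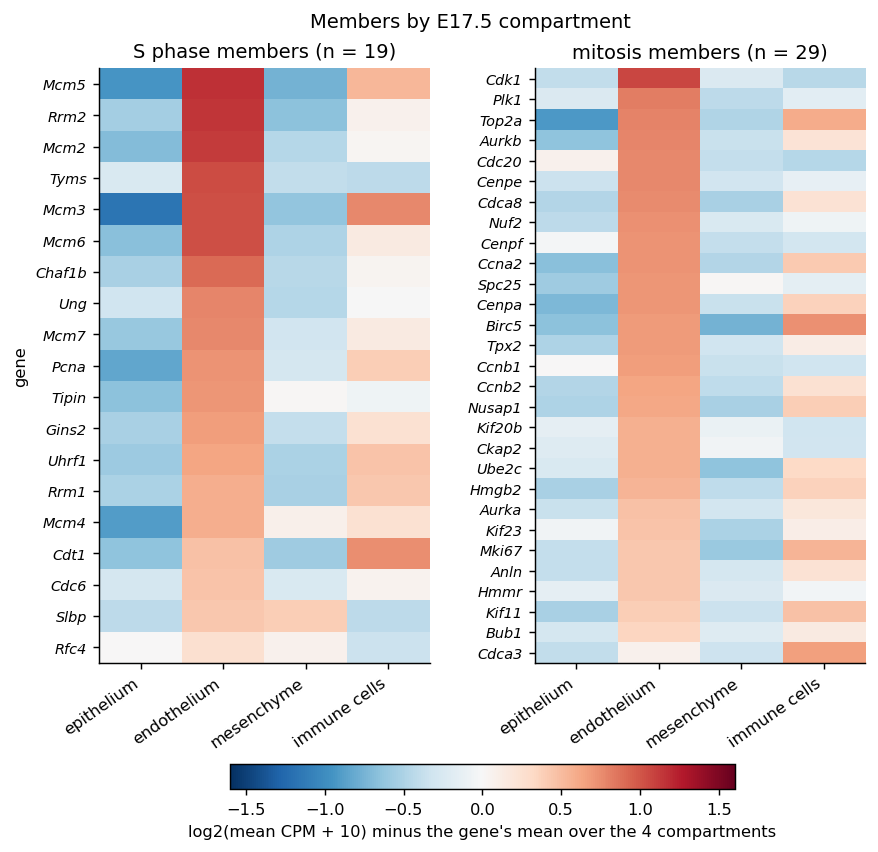
Heat map of the 19 S phase (left) and 29 mitosis members (right) in 4 compartments of the E17.5 lungs. Colour gives log2(mean CPM + 10), averaged over 3 lungs, minus the gene's own mean over the compartments, on 1 scale from blue (below) to red (above); the endothelium column is red for nearly all genes, while Cdca3, Birc5 and Mcm3 are red in immune cells too.

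Immune cells were split. Of the 45 members tested, 25 were higher than in the rest and 11 lower, beside 28.3% and 57.7% of all genes; by list this was 10 and 3 of 18 S phase and 15 and 8 of 27 mitosis members. Their medians were 0.18 and 0.29, where all genes had -0.27. Mcm3 reached 78.5, 69.2 and 66.6 CPM against 42.1, 36.4 and 41.8 in the rest (1.02 ± 0.07; limma, adjusted p = 5.5e-12). Cdt1, the loader of the helicase, was at 42.5, 41.4 and 35.5 against 18.2, 17.2 and 15 CPM, a log2 difference of 0.99. Both licensing genes lay above the average of the rest in every lung. Cdt1 was highest in immune cells in all 3 lungs, whereas Mcm3 was highest in endothelium in all 3. Birc5, the survivin subunit of the Aurora B complex, was higher by 0.98, Cdca3 by 0.88 and the topoisomerase Top2a by 0.81. In the other direction Cdk1 had 42.0, 38.2 and 41.5 CPM in immune cells against 80.3, 67.3 and 77.5 in the rest (-0.58; limma, adjusted p = 2.82e-06). Cdc20 had 35.8, 27.6 and 37.0 against 54.3, 56.5 and 69.3 (-0.61; adjusted p = 7.01e-08 by limma). Tyms (-0.56), Slbp, which binds histone mRNA (-0.55), and Rfc4, a subunit of the clamp loader (-0.45), were also lower. Immune cells thus held more Mcm3, Cdt1 and Birc5 and less Cdk1 and Cdc20 than the average of the rest, which includes endothelium. Endothelium was highest for Cdk1 and Cdc20 in all 3 lungs. By the mean over the lungs, immune cells were the lowest compartment for both. Under median-of-ratios scaling, with an all-gene median of 0.01 in place of -0.27 and 3638 genes higher and 3493 lower in place of 2368 and 4826, 32 members were called higher and 6 lower.

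The direct comparison of endothelium with immune cells gave 35 of 45 members higher in endothelium and 2 lower, beside 56.9% and 24.0% of all genes. Cdk1 differed by 1.51 (limma, adjusted p = 8.21e-12), Tyms by 1.47, Cdc20 by 1.22 and Mcm2 by 1.09. Cdca3 (-0.59; limma, adjusted p = 4.73e-06) and Cdt1 (-0.27; adjusted p = 0.0107 by limma) were higher in immune cells. The higher calls depended on the scaling. With median-of-ratios factors 20 were higher and 12 lower (all-gene median -0.05 in place of 0.30, with 3019 genes higher and 3506 lower in place of 4760 and 2005). With edgeR 22 were higher and 6 lower, where 3433 of 8359 genes were higher and 3077 lower.

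Mesenchyme was low for both lists. Of 45 members, 39 were lower than in the rest and 1 higher, beside 34.9% and 42.1% of all genes; 14 of 18 S phase and 25 of 27 mitosis members were lower. The medians were -0.59 and -0.50, with 0.05 over all genes. Birc5 had 46.5, 47.8 and 67.1 CPM against 137, 121 and 133 in the rest (-1.02), and Mcm5 had 15.9, 13.7 and 14.1 against 51.6, 44.1 and 49.5 (-1.01). For both genes mesenchyme lay below the average of the rest in every lung, though epithelium was lower still for Mcm5. Rrm2 and Ube2c were each lower by 0.89 on the log2 scale, and Ube2c was uneven between lungs, at 63.8, 58.9 and 96.8 CPM. The exception was Slbp: it was at 143, 158 and 142 CPM in mesenchyme against 104, 105 and 102, a difference of 0.53 (limma, adjusted p = 1e-09). Median-of-ratios scaling gave 2691 genes higher and 3759 lower in mesenchyme in place of 3518 and 2918, with 39 members lower as before.

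Epithelium was low for replication genes above all. It had 40 of 45 members lower and 0 higher, beside 49.0% and 27.2% of all genes: 17 of 18 S phase and 23 of 27 mitosis members. The medians were -0.79 for S phase, -0.52 for mitosis and -0.13 for all genes. Mcm3 stood at 10.5, 13.3 and 10.3 CPM against 64.8, 55.0 and 60.6 in the rest (-1.55 ± 0.07; limma, adjusted p = 2.68e-15). Pcna stood at 43.7, 43.1 and 41.4 against 103, 103 and 118 CPM (-1.10; adjusted p = 3.07e-15 by limma). Both lay far below the average of the rest in every lung. Epithelium was the lowest compartment for both in every lung, with mesenchyme next. Mcm5 was lower by 1.25 on the log2 scale, Top2a by 1.21 and Mcm4 by 1.2. The members not called were late mitotic genes for the most part: Cdc20 (0.11, adjusted p = 0.196), Ccnb1 (0.02, adjusted p = 0.854), Cenpf (-0.05) and the cytokinesis motor Kif23 (-0.08), with Rfc4 of S phase (0.01; all by limma).

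The 2 low compartments were also compared directly. Against mesenchyme, epithelium had 0 of 18 S phase members higher and 8 lower, but 6 of 27 mitosis members higher and 5 lower; the shares over all genes were 24.6% higher and 44.4% lower, so the S phase genes lower and the mitosis genes higher were at about the all-gene share. Lower in epithelium were Mcm4 (-0.98), Slbp (-0.81), the replication fork protein Tipin (-0.68), the kinetochore protein Spc25 (-0.59) and Pcna (-0.54). Higher were Cdc20 (51.4, 54.2 and 52.4 CPM against 28.4, 33.3 and 45.6; 0.47, limma adjusted p = 7.59e-05), Kif23 (0.45), Ube2c (0.43), Ccnb1 (0.39, in 2 of 3 lungs), Cenpf (0.36) and the proliferation marker Mki67 (0.22, adjusted p = 0.0273 by limma). The mesenchyme of lung 3 was nearest to the epithelium for Cdc20. Without lung 3, 8 members in all were called lower in place of 13 (3353 of 8345 genes lower). With median-of-ratios scaling it was also 8, with 11 higher in place of 6 (2828 genes higher and 2790 lower, in place of 2058 and 3713).

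The remaining pairs repeated the order. All 45 tested members were lower in epithelium than in endothelium (51.6% of all genes were lower, 23.5% higher). Endothelium had 43 higher and 0 lower against mesenchyme (39.5% and 29.4% of all genes). Immune cells had 34 members higher and 4 lower when epithelium was set against them (33.9% of all genes lower in epithelium, 44.7% higher), and mesenchyme had 31 lower and 3 higher against immune cells (30.0% and 51.9%). With median-of-ratios scaling the genes higher and lower in these pairs were 2863 and 2997 (epithelium against endothelium), 3024 and 3590 (epithelium against immune cells) and 3080 and 3734 (mesenchyme against immune cells), in place of 1967 and 4313, 3740 and 2834, and 4341 and 2509.

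Levels averaged over cells were split into shares of cells after every cell was thinned to 3000 UMIs, since depth differs between classes. A cell was counted as S-high with at least 3 UMIs over the 19 S phase genes, and as M-high with at least 3 UMIs over the mitosis genes other than Hmgb2, a chromatin protein that is abundant outside division too. These are ranges of a score and not cell types: among all cells 24.5% to 27.7% of a library lay within 1 UMI of the S phase threshold and 10.4% to 13.1% within 1 UMI of the mitosis threshold. All 3054 cells of the sort reached that depth, and 39, 50 and 129 shallower cells of the lungs were left out.

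In endothelium 49.5%, 44.1% and 43.6% of cells in lungs 1 to 3 were S-high, a mean of 45.7% ± 3.31 (SD, n = 3). Immune cells had 33.8% ± 0.699, mesenchyme 19.9% ± 0.168 and epithelium 12.1% ± 1.41. No 2 compartments overlapped in S-high share. For M-high cells the order at the top was not resolved: immune cells had 36.7%, 33% and 38.1% (35.9% ± 2.62) and endothelium 34.0%, 27.3% and 33.1% (31.5% ± 3.62), which overlapped. Epithelium (14.6%, 15.2% and 10.7%) and mesenchyme (10.0%, 10.5% and 13.4%) overlapped too, far below. Without thinning the S-high shares were 70.0%, 61.8%, 60.9% and 54.3% for endothelium, immune cells, mesenchyme and epithelium, and the M-high shares 44.5%, 50.1%, 23.5% and 34.8%. The median depths of those classes ran from 6200.5 to 10877 UMIs, with epithelium the deepest, and without thinning mesenchyme and immune cells had nearly the same S-high share.

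The 2 ranges overlapped within cells. Of S-high cells, 55.3% ± 4.52 were also M-high in immune cells, 43.5% ± 5.58 in endothelium, 34.6% in epithelium and 26.9% in mesenchyme. Over all cells of these classes, in the same order, 35.9%, 31.5%, 13.5% and 11.3% were M-high. The overlaps thus ranked as the M-high shares did, and each was above the share over all cells of its class. The balance of the lists, log2 of the summed mitosis CPM over the summed S phase CPM, was 0.83 ± 0.04 (SD, n = 3 lungs) in epithelium, 0.66 ± 0.08 in immune cells, 0.42 ± 0.07 in endothelium and 0.29 ± 0.24 in mesenchyme. Epithelium was above immune cells and immune cells above endothelium in each lung. Mesenchyme had 0.18 and 0.12 in lungs 1 and 2 but 0.57 in lung 3, above the endothelium of that lung. Its low place rested on Slbp, the most abundant S phase member. Leaving Slbp out took the S phase sum of mesenchyme from 563, 568 and 599 CPM to 420, 410 and 457. In endothelium the sum went from 1424, 1258 and 1359 CPM to 1268, 1115 and 1206. Slbp and Ube2c, the most abundant summed member of each list, were left out together. Mesenchyme then had 0.453, 0.449 and 0.797 and endothelium 0.393, 0.385 and 0.529, so mesenchyme was above endothelium in each lung.

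**Figure D2:**
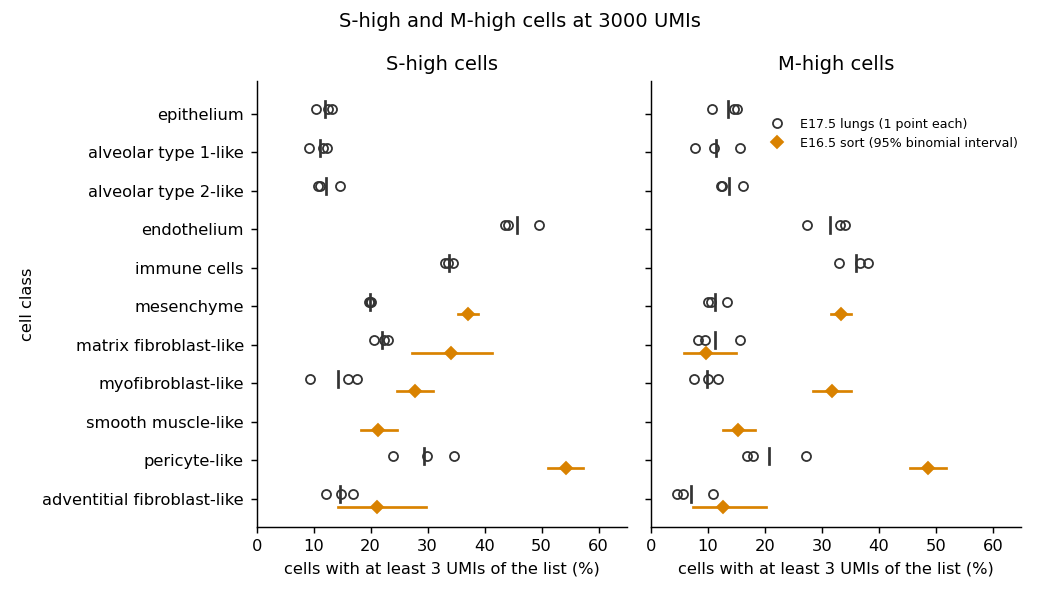
Percent of cells that were S-high (left) and M-high (right) at 3000 UMIs, by cell class. Open circles are the 3 E17.5 lungs with their mean as a bar, and orange diamonds the single E16.5 sort with its exact 95% binomial interval; endothelium has the highest S-high share among lung classes, and sorted pericyte-like cells, at 54.2%, the highest among the sorted mesenchymal classes plotted.

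Within a compartment the division genes were concentrated in some clusters. Classes were named "-like" by marker lists. In epithelium the 2 alveolar type 2-like clusters differed: the cluster led by Retnla, Cxcl15 and Lyz1, genes of mature surfactant cells, had 5.36% S-high and 2.90% M-high of 448 cells, while the one led by Mia, Bex4, Sftpc and Etv5 had 21.1% and 27.4% of 361 cells. Its M-high share was 30.4%, 21.9% and 28.2% in lungs 1 to 3 against 3.59%, 2.25% and 2.60% in the first. Alveolar type 1-like cells showed a like spread. The cluster led by Aqp5 and Ager, of the type 1-like marker list, also had Msln, of the mesothelium list, among its leading genes. It had 8.38% S-high cells and 0 of 167 M-high, which allows a share of up to 1.80%. The cluster led by Tinag, Ano1 and Cldn18 had 12.2% and 18.7% of 411 cells (M-high 18.7%, 22.8% and 15.2% by lung). The cluster led by Sprr1a, Cldn4 and Areg lay between, at 10.1% and 6.86%. Since clusters were made from the same cells, these shares are descriptions.

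Endothelium ranged as widely. The cluster led by Cxcl12, Gja4 and Gja5, genes of arteries, had 11.8% S-high and 2.94% M-high of 68 cells, and the cluster led by Aplnr, Vegfc and Vwf 18.8% and 9.38% of 64. The 2 large clusters led by Ccl21a and by Scn7a had 43.7% and 48.0% S-high, with 28.8% and 22.0% M-high. A further 144 cells formed a cluster that was 100% M-high and was led by Hist1h2ap, Cdk1 and Plk1, although the listed cycle genes had been kept out of the clustering. Among immune cells the large macrophage- or monocyte-like cluster led by Ear2, Lpl and Plet1 had 44.7% S-high and 49.7% M-high of 1222 cells. The clusters led by S100a4 and Ccr2 (23.8% and 23.6%), by the complement genes C1qa and C1qc with Pf4 (17.0% and 16%) and by Plac8 and Ly6c2 (5.88% and 6.54%) were lower. In mesenchyme the large matrix fibroblast-like cluster (931 cells) had 18.8% S-high and 4.4% M-high, and a second one of 71 cells had 62.0% and 98.6%.

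**Figure D3:**
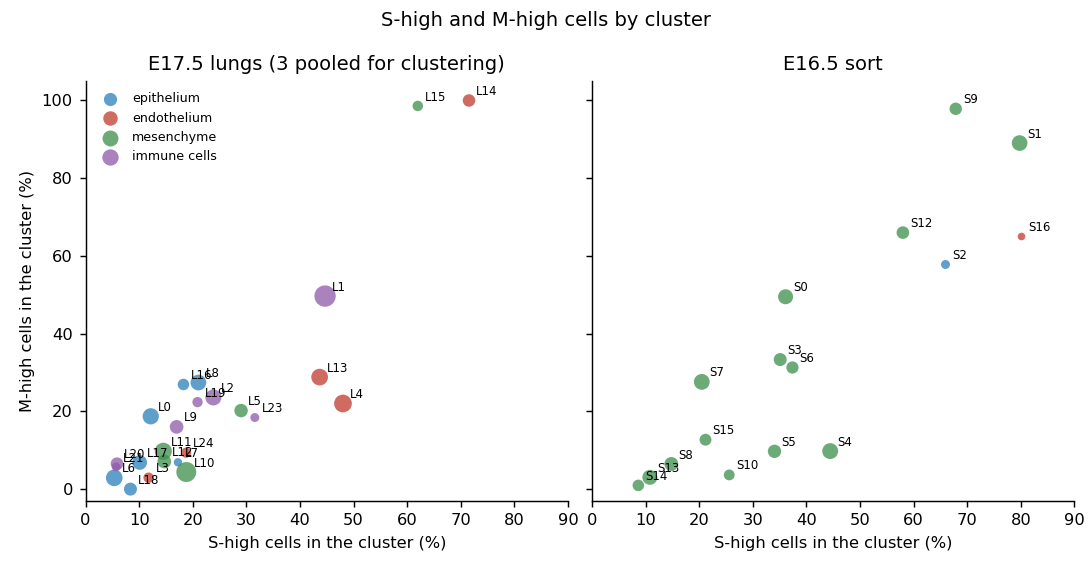
Each point is 1 cluster, with the percent of S-high cells on the x axis and of M-high cells on the y axis at 3000 UMIs, for the pooled E17.5 lungs (left) and the E16.5 sort (right); colour gives the compartment and area grows with the number of cells. Endothelial and mesenchymal clusters L14 and L15 and sorted clusters S1 and S9 sit near the top, and S4 and S5 have more S-high than M-high cells.

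Pericyte-like cells, the supporting cells of capillaries, had higher levels of mitosis genes than matrix fibroblast-like cells at E17.5. Of 42 members tested, 28 were higher and 0 lower, beside 22.3% and 14.9% of all genes; this was 22 of 26 mitosis members but 6 of 16 S phase members. The medians were 0.73 for mitosis, 0.39 for S phase and 0.07 for all genes. Ube2c was at 164, 121 and 245 CPM in pericyte-like and 51.9, 43.4 and 105 in matrix fibroblast-like cells (1.31 ± 0.13; limma, adjusted p = 1.36e-10). Every pericyte value was above every matrix value. Ccnb1 was at 68.4, 31.6 and 92.2 against 15.3, 18.1 and 43.2 CPM (1.05 ± 0.19; limma, adjusted p = 2.46e-05), so lung 2 pericytes lay below lung 3 fibroblasts. Cenpf and Cdca8, a subunit of the Aurora B complex, also differed by 1.05. Among S phase members Mcm6 stood out at 85.6, 61.9 and 84.6 against 27.1, 23.3 and 16.2 CPM (1.44 ± 0.17; adjusted p = 2.14e-08 by limma), followed by Rrm1 (0.79). Tyms (0.01), Slbp (-0.11) and Rfc4 (-0.14) were not called. Without the lung as a block 16 members were called (1596 of 7899 genes higher), and 15 when cells were thinned to 3000 UMIs (1020 of 7879 genes higher). With cycle genes left in the clustering 18 were called (1682 of 7909 genes higher). Median-of-ratios scaling gave 23 members higher, with 1391 genes higher and 1617 lower in place of 1764 and 1179.

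Myofibroblast-like cells, the contractile cells of the E17.5 lungs, differed little from matrix fibroblast-like cells: 0 of 35 members were higher and 5 lower, beside 30.7% and 14.9% of all genes, so the lower count was at the background. The medians were -0.19 for S phase, -0.07 for mitosis and 0.12 for all genes. Mcm3 (-0.64 ± 0.15; limma, adjusted p = 0.000375), Mcm4 (-0.55 ± 0.14), the cyclin Ccnb2 (-0.46), Rfc4 (-0.46) and Hmgb2 (-0.32) were lower. This count moved with the choices made: it was 3 with edgeR, 10 with median-of-ratios scaling (1615 genes higher and 1704 lower, in place of 2440 and 1182) and 28 when cycle genes were left in the clustering. Over all genes, 1641 of 7938 were lower with edgeR and 1269 of 7982 with cycle genes left in. Without lung 3, Ccnb2 had -0.09 and Hmgb2 -0.04 and 3 members were called lower and 4 higher, and without lung 2 10 were lower. Of all genes, 1068 were lower and 2117 higher without lung 3, and 1002 were lower without lung 2.

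Alveolar type 1-like cells, the flat cells of gas exchange, had lower S phase levels than type 2-like cells, the makers of surfactant. Of 15 S phase members tested 7 were lower and 0 higher, and of 20 mitosis members 0 were lower and 4 higher, beside 14.4% lower and 25.6% higher over all genes, so the mitosis genes higher were no more than the background. Pcna was at 35.5, 36.3 and 31.8 CPM against 53.0, 49.8 and 48.3 (-0.44; limma, adjusted p = 0.000347). Mcm5 was at 9.89, 7.75 and 6.81 against 15, 16.8 and 15.2 (-0.50; adjusted p = 0.00126 by limma). Neither gene's groups overlapped. Mcm3 (-0.50), Uhrf1, which brings Dnmt1 to newly copied DNA (-0.42), Gins2 of the active helicase (-0.37), Tipin (-0.34) and Slbp (-0.22) were lower as well. The 4 higher members, Kif23 (0.39), Ccnb1 (0.37), Cdc20 (0.31) and Cenpf (0.27), had adjusted p of 0.0212, 0.0347, 0.0303 and 0.0456 by limma, and the first 3 were higher in 2 of 3 lungs. None of these 4 was called higher without the lung as a block, with edgeR or with cycle genes left in the clustering. In that clustering 28 members and 1184 of 7391 genes were lower. Of all members, 7 were lower in the fit as described, 13 without lung 2, 15 with edgeR and 11 with median-of-ratios scaling (1525 genes higher and 1316 lower, in place of 1888 and 1066). Over all genes, 1042 were lower without lung 2 and 1332 with edgeR. With cells thinned to 3000 UMIs fewer members were called lower, at a share near that of all genes (716 of 7383 lower).

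**Figure D4:**
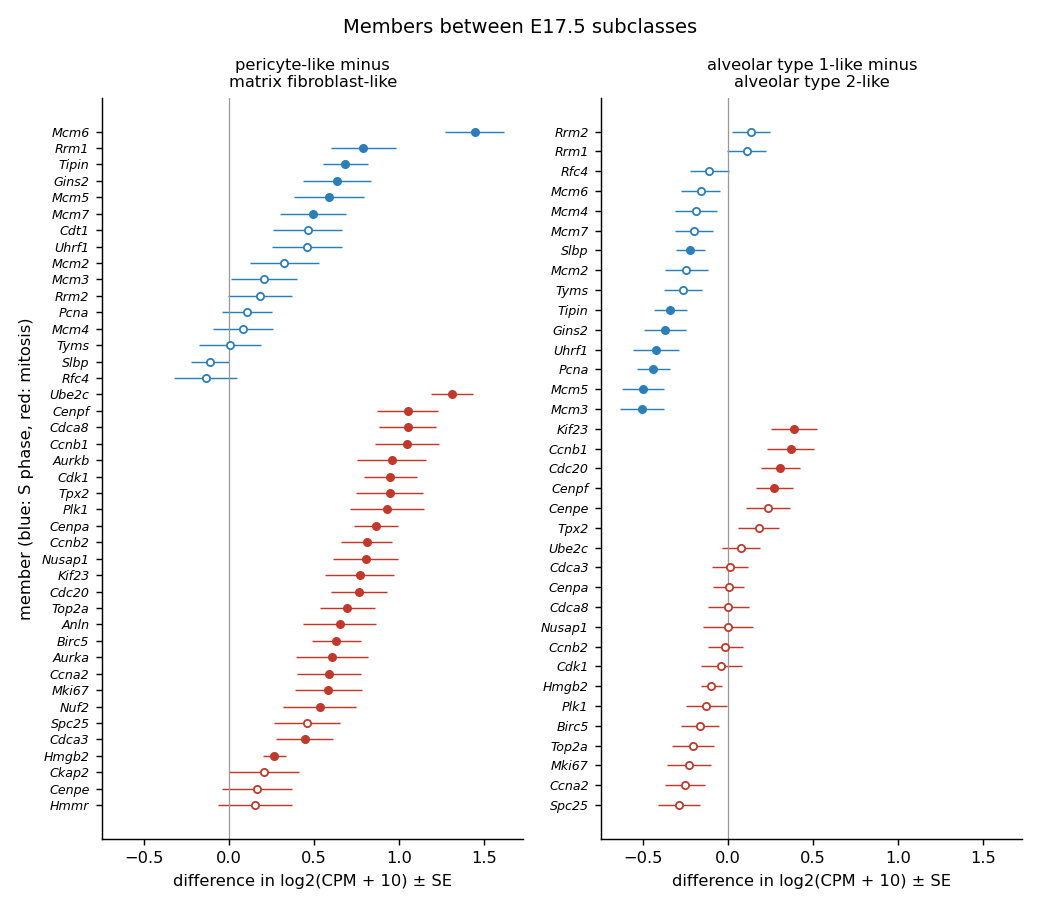
Differences of the tested members between subclasses of the E17.5 lungs, in log2(CPM + 10) with the standard error from 3 lungs, for pericyte-like minus matrix fibroblast-like (left) and alveolar type 1-like minus type 2-like cells (right). Blue is S phase, red is mitosis, and filled points had a limma adjusted p under 0.05; 28 of 42 points are filled on the left, all above 0, while on the right the 7 filled S phase points are below 0 and the 4 filled mitosis points above it.

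Other genes of the pathway, from lists that do not hold the members, were also high in endothelium. Of 60 other replication genes 42 were tested, and 41 were higher and 1 lower there; of 69 other mitosis genes 38 were tested, and 36 were higher and 0 lower (51.6% and 27.6% of all genes). The largest differences were those of Tk1, thymidine kinase (1.51), Timeless, the partner of Tipin (1.5), the ligase Lig1 (1.23), securin Pttg1 (1.55), Fam64a (1.53) and the lamin Lmnb1 (1.46). E2f2 was the 1 lower gene (-0.28). Epithelium had 1 higher and 38 lower replication genes and 3 higher and 30 lower mitosis genes (27.2% and 49.0% of all genes), with E2f2 higher by 1.23. Mesenchyme had 3 and 23 of the replication and 0 and 32 of the mitosis genes (42.1% and 34.9% of all genes), and immune cells 17 and 16, and 13 and 13 (28.3% and 57.7%), with the methyltransferase Dnmt1 (1.34) and the licensing inhibitor Gmnn (1.01) among the higher.

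Of the genes that drive the cycle through G1, a few had large differences. Ccnd1, cyclin D1, was at 366, 347 and 352 CPM in endothelium and at a mean of 22.7 in the rest (3.54 ± 0.07; limma, adjusted p = 4.93e-23), and was lower in mesenchyme by 1.86 on the log2 scale. Ccnd2, cyclin D2, was the mesenchymal one: 214, 229 and 222 CPM against a mean of 86.9 (1.40), and lower in immune cells (-1.67). Each D cyclin was thus above the average of the other compartments in its own compartment. Myc (1.66) and Cdk6 (0.96) were higher in mesenchyme, and Cdk4 was lower in immune cells (-1.17). Of the 12 genes of this list that were tested, 7 were higher and 2 lower in endothelium, 5 and 4 in mesenchyme, 3 and 8 in epithelium and 1 and 7 in immune cells. The all-gene shares for these compartments were 51.6% and 27.6%, 42.1% and 34.9%, 27.2% and 49.0%, and 28.3% and 57.7%. The counts of the list higher in endothelium, mesenchyme and epithelium, and lower in mesenchyme and immune cells, were near this background.

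Inhibitors of the cycle were described in the same way. Cdkn1c (p57), an inhibitor of cyclin-dependent kinases, was at a mean of 578 CPM in mesenchyme, 550 in epithelium and 23.1 in immune cells, with differences of 2.09, 1.99 and -3.45 from the rest. Cdkn1a (p21) was at 264, 316 and 306 CPM in immune cells against a mean of 118 (1.27; limma, adjusted p = 3.14e-16). Cdkn2b (p15) was at a mean of 63.7 CPM in epithelium against 1.45 in the rest (2.69). The levels of these inhibitors did not follow one another from class to class. Gas1 (2.75) and the antiproliferative Btg2 (1.85) were higher in mesenchyme. Of 13 tested genes of the list, 6 were higher and 4 lower in mesenchyme, 3 and 10 in epithelium, 5 and 7 in immune cells and 5 and 6 in endothelium. Against the same all-gene shares, the counts in mesenchyme, of genes higher in epithelium and of genes lower in immune cells were near the background.

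Subclasses differed in these genes as well. Pericyte-like cells had Ccnd2 at 635, 641 and 587 CPM against a mean of 172 in matrix fibroblast-like cells (1.79), Cdk6 at a mean of 180 against 48.8 (1.69), more Cdkn2d (1.26) and less Btg2 (-1.14). They had 16 of 41 other replication and 19 of 35 other mitosis genes higher and 0 lower (22.3% and 14.9% of all genes). Myofibroblast-like cells had Cdkn1a at 234, 260.2 and 306 CPM against a mean of 52.8 (2.14; limma, adjusted p = 8.27e-31), and 2 replication genes far above the fibroblasts: Rpa1, of the single-strand binding complex (133 against 26.4 CPM, 1.96), and the kinase Cdc7 that fires origins (38.3 against 4.28 CPM, 1.76). In all, 5 of their 34 other replication genes were higher and 5 lower, beside 30.7% and 14.9% of all genes, so the lower count was at the background. Type 1-like cells had Cdkn2b at 119, 111 and 112 CPM against a mean of 13.1 in type 2-like cells (2.43; adjusted p = 2.75e-20 by limma).

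The sorted E16.5 cells were set beside the same classes of the E17.5 lungs without a test, as the sort is 1 sample. A member was counted as apart when its mean CPM differed from each of the 3 lungs by 2-fold or more in the same direction. The sort held 1033 pericyte-like, 804 myofibroblast-like, 699 smooth muscle-like, 185 matrix fibroblast-like and 118 adventitial fibroblast-like cells, and 150 cells of an unnamed cluster led by Lum, Dcn and Epha3. At 3000 UMIs, 37.0% of its mesenchymal cells were S-high and 33.3% M-high, beside the 19.9% and 11.3% of lung mesenchyme. Its median depth in mesenchyme was 11923 UMIs against 7434.5, 8382.5 and 6796.5, and unthinned it had 82% and 60.5% beside 60.9% and 23.5%.

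Pericyte-like cells were 54.2% S-high in the sort (exact 95% binomial interval 51.1% to 57.3%, counting error only) and 48.6% M-high (45.5% to 51.7%), beside 29.4% ± 5.31 and 20.7% ± 5.72 in the lungs (unthinned, 93.4% and 77.3% beside 70.8% and 32.7%). In this class 6 of 19 S phase members were apart and higher and 1 of 29 mitosis members, and 0 were lower; of all genes 0.866% were apart and higher and 5.00% lower. Tyms was at 112 CPM in the sort, beside 36.2, 21.4 and 34.9 for lungs 1 to 3. Summed over those cells it had 2098 UMIs, or 136 CPM with an exact Poisson interval of 130.2 to 142 for counting error. Rrm2 was at 104 against 24.4, 25.6 and 51.4 CPM, and Mcm3 at 71.1 against 25.1, 30.3 and 30.4. The sort lay beyond every lung for both. Uhrf1, the uracil glycosylase Ung, the chromatin assembly subunit Chaf1b and the kinetochore motor Cenpe (55.6 against 13.4, 24.0 and 19.2 CPM) were the others. The median log2 ratio was 0.88 over S phase and 0.65 over mitosis members, with -0.04 over all genes. The class came from different clusters: 3 in the sort, whose M-high shares were 49.5%, 89.0% and 9.79%, and 1 in the lungs with 20.2%.

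In myofibroblast-like cells it was the mitosis genes that stood apart. These cells alone were added to the planned class, which joins smooth muscle-like cells to them and is given below. Of 26 mitosis members 21 were higher in the sort and 0 lower, and of 15 S phase members 5 were higher and 0 lower, where 1.23% and 4.91% of all genes were apart. Ccnb2 was at 142 CPM against 49.5, 29.1 and 23.2 in the lungs, from 1619 UMIs. Cenpa was at 215 against 74.3, 84.4 and 44.1, and Cdk1 at 116 against 46.5, 39.8 and 44.1. Every one of these sorted values was above every lung's. Cenpe had 48.8 CPM against 11, 11.2 and 12.5. The S phase members apart were Mcm3, Mcm5, Rrm2, Rfc4 and Tyms, at 30.1, 29.1, 58.7, 44.8 and 58.9 CPM. Pcna and Slbp went the other way without reaching 2-fold: Pcna was at 49.5 CPM beside 71.2, 73.0 and 67.1 for the lungs, and Slbp at 107 against 149, 159 and 141. The M-high share was 31.7% (28.5% to 35.1%) in the sort and 9.79% ± 2.17 in the lungs (unthinned 62.3% and 21.7%), and the balance of mitosis over S phase was 1.29 against 0.27 ± 0.10. The M-high cells were unevenly spread over the 4 sorted clusters, from 3.66% to 97.9% (17475.5 UMIs as the median of the last), while the lungs had 1 cluster with 9.74%. When myofibroblast-like and smooth muscle-like cells of the sort were joined, 3 of 15 S phase and 7 of 23 mitosis members were apart and higher (1.03% of all genes; 4.74% lower); no cluster of the lungs was named smooth muscle-like here, though each of the 4 other clusterings run had one that held lung cells (with cycle genes left in, 42, 41 and 43 cells by lung). The joined class was 24.1% M-high in the sort. Smooth muscle-like cells of the sort had 21.3% S-high and 15.3% M-high cells. Their cluster led by Actc1 and Actg2 had 1 of 104 cells M-high (0.962%), and that led by Crh, Actg2 and Acta2 had 3.04% of 296. The latter shared Crh, Igf1 and Ednrb among its leading genes with the myofibroblast-like cluster of the lungs, but was outside the sort's myofibroblast-like class.

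In matrix fibroblast-like cells few members stood apart. Of 17 S phase members 1 was apart and higher, Mcm6 (76.0 CPM against 27.1, 23.3 and 16.2), and of 19 mitosis members 5 were apart and lower, beside 2.47% and 5.50% of all genes. Cdc20 was at 3.61 CPM, from 8 UMIs, against 25.1, 24.0 and 50.6 in the lungs, and Top2a at 12.2 against 29.4, 33.4 and 68.9. Nusap1, Ccna2 and Spc25 were the others. The shares were 34.1% S-high and 9.73% M-high beside 22.0% ± 1.28 and 11.2% ± 3.95, the M-high share lying within the range of the lungs (unthinned 81.6% and 31.9% beside 65.2% and 23.5%). Pcna (51.7 against 61.2, 68.0 and 75.6 CPM) and Slbp (102 against 155, 171 and 145) were again below the lungs. The low mitosis values rested on the clustering. With the 4 samples clustered together 0 of 26 mitosis members were lower and 12 higher (242 of 7778 genes higher). With 1495 genes kept out of the clustering 0 of 26 were lower and 6 higher (211 of 7760 genes higher). The unnamed cluster led by Lum and Dcn, which had 66.0% M-high and 58.0% S-high cells, had matrix fibroblast-like as its nearest class.

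**Figure D5:**
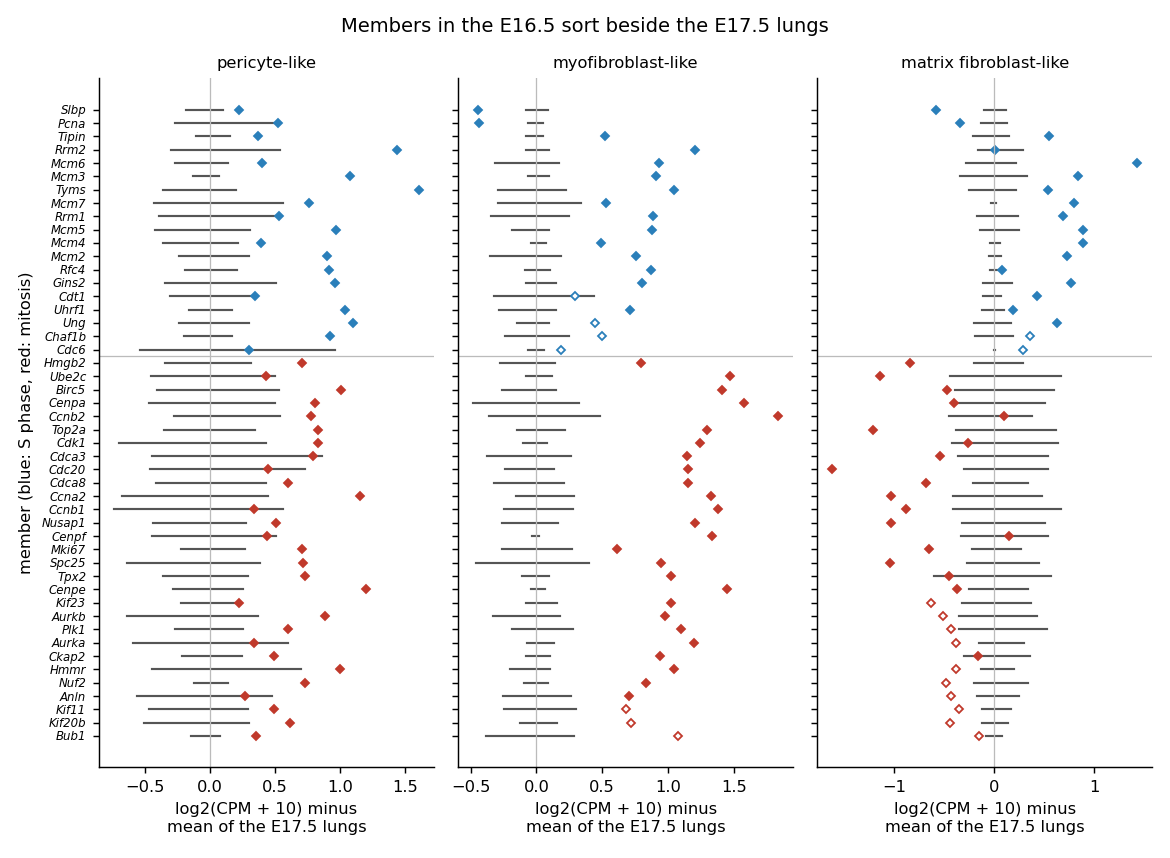
Diamonds give each member's log2(CPM + 10) in the E16.5 sort minus the mean of the 3 E17.5 lungs, in 3 classes of mesenchyme, and grey lines span the lungs; blue is S phase, red is mitosis, and open diamonds had a mean under 10 CPM. Nearly all points lie right of the lungs in myofibroblast-like cells, whereas in matrix fibroblast-like cells most blue points lie right and most red points left.

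The sort also held 38 epithelial cells and 20 endothelial cells, outside its gate by label. Of these 65.8% (48.6% to 80.4%) and 80.0% (56.3% to 94.3%) were S-high and 57.9% and 65% M-high. Their Acta2 level was 160 and 234 CPM, beside 3136 in the sorted mesenchyme and 20.1 to 27.0 and 19.6 to 32.8 in epithelium and endothelium of the lungs.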

How the data were processed

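Single-cell RNA of 4 mouse lung samples was used. The deposited values are a signal per gene and cell, which the authors scaled so that every cell of a table has the same sum, per the file headers and values. Cell Ranger 1.3.1 and Seurat 3.0.0 are named in the submitters' processing notes; the build they used is not stated in the sources used here. In each cell all values were whole multiples of 1 step (tolerance 0.01), so UMI counts were recovered; a normalized unit had been expected, so the log-scale test was kept as the main one and the count test as the alternative. Doublets were called with scrublet and left out (1.00% to 1.59% of cells). Cells were clustered with scanpy 1.11.5 and leidenalg 0.10.2 on 2000 variable genes, lungs and sort separately; classes were named from marker lists, so they are rebuilt names.

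The tests used limma 3.58.1 in R 4.3.3 on log2(mean CPM + 10) per class and lung, with the lung as a block, over genes averaging 10 CPM or more and classes of 20 or more cells in each lung, with Benjamini-Hochberg adjustment over all genes tested. Classes of a lung come from the same animal, and their deviations correlated at 0.122 to 0.380. Shares used cells thinned to 3000 UMIs; binomial and Poisson intervals cover counting error only. The fit was tested on simulated data. Named genes were the members with the highest levels, the 5 largest differences per direction, members against their list's direction, and the 3 largest per direction of each other list. The members and lists were chosen with earlier results of these data known. Alternatives covered edgeR 4.0.16, pseudocount, filter, scaling, block, replicates, depth, thresholds, clustering, doublets and pooled means. Mesothelial and erythroid cells were not analysed here.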

Additional observations from a re-analysis of the deposited data

How the results depend on the processing

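Among the main counts, shares and balances, 242 values under the alternatives kept their direction and stayed near the reported value, 90 moved and 5 reversed. The counts of members against the rest were stable in the leading direction of each compartment; those between neighbours and subclasses were less so, and the causes were not tested. In percent of tested members, lower members in epithelium against mesenchyme (28.9%) were 17.8% with median-of-ratios scaling, 46.7% with pooled CPM and 17.8% to 38.6% with 1 lung left out. Members higher in endothelium than in immune cells (77.8%) were 48.9% with edgeR and 44.4% with median-of-ratios scaling. Members lower in myofibroblast-like than in matrix fibroblast-like cells (14.3%) were 8.57% with edgeR, 28.6% with median-of-ratios scaling, 8.57% with no replicate block, 87.5% with cycle genes left in the clustering, 7.50% with pooled CPM, 28.6% with stricter clustering (added after seeing the data) and 8.82% to 28.6% with 1 lung left out. Members higher in pericyte-like cells (66.7%) were 43.8% with no filter, 38.1% with no replicate block, 34.9% with thinned cells and 41.9% with cycle genes left in. Members lower in alveolar type 1-like cells (20.0%) were 42.9% with edgeR, 10.4% with no filter, 31.4% with median-of-ratios scaling, 11.8% with thinned cells, 82.4% with cycle genes left in, 33.3% with pooled CPM and 13.9% to 39.4% with 1 lung left out. Dropping the lung block changed no other leading count by more than 1.5 times. The shares of all genes called changed with these settings too, so these percents do not stand beside the shares of the main fit.

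Between the sort and the lungs, a 1.5-fold threshold gave 10 S phase members higher in matrix fibroblast-like, 10 in joined contractile and 10 in myofibroblast-like cells, 10 mitosis members lower in matrix fibroblast-like cells, and 19 and 4 mitosis members higher in contractile and pericyte-like cells. More genes pass at that threshold: 846 of 7695 were higher and 678 lower in matrix fibroblast-like cells. In contractile, myofibroblast-like and pericyte-like cells 393, 430 and 294 were higher. Thinned cells gave 4, 3 and 4 (S phase in matrix and myofibroblast-like, mitosis in pericyte-like cells). With the 4 samples clustered together 7 S phase members were higher in matrix and 0 in contractile cells, and 0 mitosis members were lower in matrix cells; stricter clustering gave 5 S phase members higher and 0 mitosis members lower in matrix cells and 12 mitosis members higher in contractile cells.

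The S-high shares depended on depth and threshold. As log2 ratios, in the order 1000 UMIs, 5000 UMIs, no thinning, at least 2 UMIs and at least 5 UMIs, endothelium over mesenchyme (1.2) gave 2.38, 0.60, 0.20, 0.59 and 2.31, and immune cells over mesenchyme (0.77) gave 1.23, 0.28, 0.022, 0.29 and 1.45, with 0.73 when doublets were kept. The sort over the lungs gave 1.33, 0.45, 0.40, 0.43 and 2.01 in pericyte-like cells (0.90), and 0.75, 0.50, 0.33, 0.33 and 1.25 in matrix fibroblast-like cells (0.63), with 1.025 for cycle genes left in, 0.44 for doublets kept and 0.77 for stricter clustering. In myofibroblast-like cells (1.01) it gave 2.40 at 1000 UMIs, 0.28 at 5000 UMIs and 1.5 with cycle genes left in. Immune cells over endothelium (-0.44) gave -1.15 at 1000 UMIs, -0.18 with no thinning, -0.30 at 2 and -0.86 at 5 UMIs.

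For M-high shares, endothelium over mesenchyme (1.48) gave 0.94 with no thinning, 1.00 at 2 UMIs and 0.90 with Hmgb2 kept. Immune cells over mesenchyme (1.68) gave 1.41 at 1000 and 1.49 at 5000 UMIs, 1.11 with no thinning, 1.21 at 2 UMIs and 1.08 with Hmgb2 kept. Immune cells over endothelium (0.20) reversed to -0.052 at 1000 UMIs. The sort over the lungs gave 0.79 with Hmgb2 kept in pericyte-like cells (1.27). In myofibroblast-like cells (1.72) it gave 1.3 at 5000 UMIs, 1.16 at 2 UMIs, 0.94 with Hmgb2 kept, 3.98 with cycle genes left in and 2.23 with doublets kept. In matrix fibroblast-like cells (-0.14) it gave -1.59 at 1000 UMIs and -0.65 at 5 UMIs, and reversed to 0.47 with no thinning, 1.39 with cycle genes left in and 1.33 with stricter clustering.

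The balance of immune cells minus endothelium (0.24) was 0.37 with Hmgb2 kept and 0.19 without the most abundant members. For the sort minus the lungs it was 0.73 in both cases in myofibroblast-like cells (1.02), and in matrix fibroblast-like cells (-1.33) it reversed to 0.67 with stricter clustering.

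Among single genes 9 values reversed. In immune cells against the rest these were Cenpe (0.19 with edgeR, 0.10 with median-of-ratios scaling) and Spc25 (0.078 with that scaling), and in pericyte-like cells Mki67 (-0.30 with thinned cells). In alveolar type 1-like cells with cycle genes left in the clustering these were Cenpf (-1.62), Ccnb1 (-1.65; -0.11 with edgeR), Cdc20 (-1.6) and Kif23 (-0.50). Cdc6, Bub1 and Kif20b, low at this depth, did not pass the filter of 10 CPM in the fit of the compartments as reported.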
